A study of Caenorhabditis elegans with 2 samples.

Results

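UNC-62 peaks at small noncoding RNA genes were the nuclear peaks whose summit lay inside or within 200 bp of a gene that Ensembl classes as transfer RNA (tRNA), small nucleolar RNA (snoRNA), small nuclear RNA (snRNA) or microRNA (miRNA). Of 18993 nuclear peaks in the list called on the pooled reads, 391 (2.06%) met this rule. By its label that list holds background as well as peaks, so a member is not in itself a called binding site. They were 224 peaks at tRNA genes, 110 at snoRNA genes, 29 at snRNA genes and 29 at miRNA genes, with 1 peak counted for both a tRNA and an snRNA gene. The peaks come from chromatin immunoprecipitation followed by sequencing (ChIP-seq) in whole young adult Caenorhabditis elegans of strain OP600, at 4 days and with both sexes pooled. The strain carries the allele unc119(ed3) and the transgene wgIs600, which joins the TY1, EGFP and FLAG tags to unc-62 and also holds unc119. The 2 biological replicates form 1 group, with no other condition to set it against. The labels give the antibody as unc-62 and describe the assay as against the EGFP fusion, and they name no deletion of the native gene. All tissues of the worm were mixed, so a site bound strongly in few cells and one bound weakly in many cannot be told apart.

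UNC-62 belongs to the Meis class of homeodomain proteins, which regulates transcription, pairs with Pbx-type partners on DNA and is known in worms for roles in development, in yolk gene expression and in adult lifespan. The 4 kinds of small RNA gene are read by different machinery. RNA polymerase III reads tRNA genes from promoter elements inside the gene, the A box and the B box. RNA polymerase II reads miRNA genes and most snRNA genes from upstream promoters, and many worm snoRNA genes lie inside introns of protein-coding hosts.

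The sequence around the summit is shown for 2 of the strongest peaks of each biotype, because these sites are among those with the highest values. At tRNA genes 2 stronger peaks than F52H2.t1, and at snRNA genes 1 stronger than both shown, are described by their values only. Each window covers 101 bp of the ce11 build, read on the plus strand of the RefSeq assembly. Capitals mark matches, on either strand, to TGACAG, the word of Meis proteins, or to TGATTGAC, a joined Pbx and Meis word. CTGTCA and GTCAATCA are these words read on the minus strand. The windows at snoRNA gene T21B4.20 (chrII:12518963-12519063), snoRNA gene T15H9.8 (chrII:9622194-9622294), tRNA gene F01G12.t1 (chrX:16377950-16378050), tRNA gene F52H2.t1 (chrX:2553597-2553697), snRNA gene ZK1251.14 (chrIV:9682672-9682772), snRNA gene sls-2.1 (chrII:5844756-5844856), mir-239.2 (chrX:11791528-11791628) and mir-53 (chrIV:11027819-11027919) read as follows.
T21B4.20: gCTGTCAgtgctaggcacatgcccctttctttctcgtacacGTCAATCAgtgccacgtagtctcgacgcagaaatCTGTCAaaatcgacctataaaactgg
T15H9.8: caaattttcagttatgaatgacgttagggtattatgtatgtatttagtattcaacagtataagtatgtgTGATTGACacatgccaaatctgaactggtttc
F01G12.t1: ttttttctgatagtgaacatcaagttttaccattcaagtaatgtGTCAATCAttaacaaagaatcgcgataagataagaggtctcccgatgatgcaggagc
F52H2.t1: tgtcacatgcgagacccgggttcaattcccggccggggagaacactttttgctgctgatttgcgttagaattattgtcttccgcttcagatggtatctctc
ZK1251.14: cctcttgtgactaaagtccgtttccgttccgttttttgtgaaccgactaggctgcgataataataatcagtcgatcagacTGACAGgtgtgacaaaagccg
sls-2.1: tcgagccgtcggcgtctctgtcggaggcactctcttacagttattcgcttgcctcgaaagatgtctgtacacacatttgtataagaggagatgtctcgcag
mir-239.2: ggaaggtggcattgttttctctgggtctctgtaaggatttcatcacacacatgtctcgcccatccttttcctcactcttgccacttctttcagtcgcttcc
mir-53: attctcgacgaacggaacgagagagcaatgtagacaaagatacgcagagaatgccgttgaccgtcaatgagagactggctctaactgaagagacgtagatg
The strongest tRNA window and both snoRNA windows held TGATTGAC, and the T21B4.20 window also held TGACAG at 2 places. The ZK1251.14 window held TGACAG once. The windows of F52H2.t1, sls-2.1, mir-239.2 and mir-53 held neither word.

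A further tRNA window was chosen because it holds GTTCGANNC, the core of the B box, which the capitals mark here. The match is thus set by the choice of the window. Its summit falls inside the tRNA gene body. It belongs to 1 of the 6 strongest tRNA peaks, at T04F8.t1 (chrX:11645649-11645749), a tRNA-Asn gene.
T04F8.t1: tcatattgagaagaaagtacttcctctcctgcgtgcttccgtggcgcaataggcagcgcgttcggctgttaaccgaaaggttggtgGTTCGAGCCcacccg
In T04F8.t1, 67 of the 101 bases belong to the gene.

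Over all annotated genes, a summit was most frequent at tRNA genes and least frequent at miRNA genes. Among genes without an identical copy in the genome the order of the first 2 biotypes turned, with 29.3% of 140 tRNA genes, 31.2% of 343 snoRNA genes, 22.9% of 83 snRNA genes and 11.8% of 255 miRNA genes. In the pooled list 238 of 612 tRNA genes (38.9%), 107 of 346 snoRNA genes (30.9%), 27 of 129 snRNA genes (20.9%) and 30 of 261 miRNA genes (11.5%) had a summit within 200 bp. The exact 95% Clopper-Pearson intervals, which cover the counting of genes and not the spread between worms, were 35.01 to 42.9% for tRNA, 26.1 to 36.1% for snoRNA, 14.3 to 29.0% for snRNA and 7.89 to 16.0% for miRNA genes. The order of the biotypes was the same in each replicate. Replicate 1 placed a summit at 38.6% of tRNA, 35.5% of snoRNA, 22.5% of snRNA and 18.4% of miRNA genes, and replicate 2 at 40.5%, 36.4%, 28.7% and 16.1% of the same genes. Neighbours in this order have overlapping intervals in all 3 lists. The tRNA and snoRNA intervals lie wholly above the miRNA interval in all 3. With 1 group, no test over samples can compare the biotypes.

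**Figure D1:**
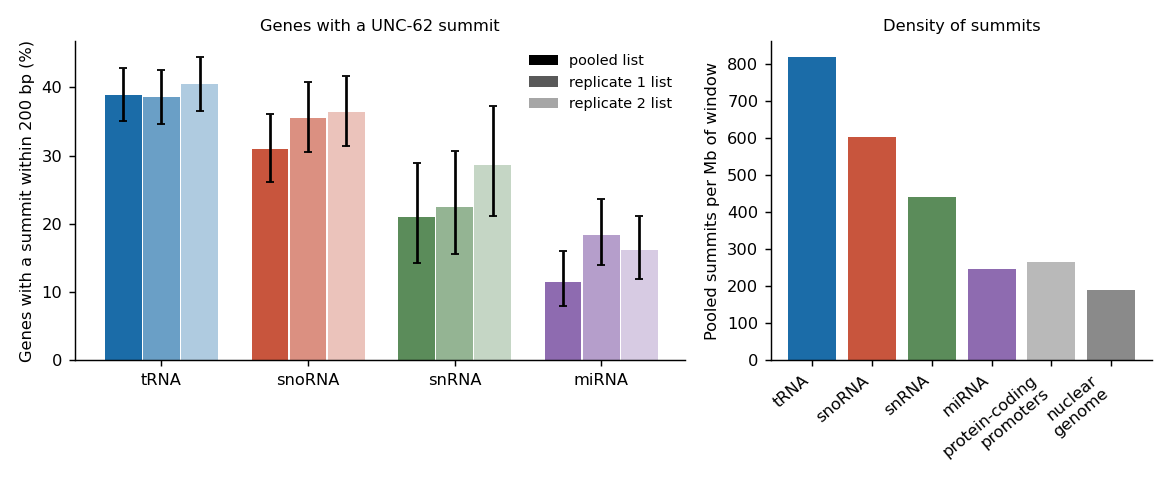
Left, share of genes of each biotype (%) with a summit within 200 bp in the pooled and the replicate lists, with bars for the 95% interval. Right, pooled summits per Mb of the windows around each biotype, of protein-coding promoter windows and of the nuclear genome. tRNA genes stand highest in every list, and the miRNA windows lie near the promoter windows in density.

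Set against the length of sequence around the genes, the density of summits followed the same order. It was 820 summits per Mb at tRNA genes, 604 at snoRNA genes, 441 at snRNA genes and 246 at miRNA genes. In promoter windows of protein-coding genes, from 1000 bp upstream to 200 bp downstream of each transcript start, it was 265 per Mb, and over the whole nuclear genome it was 189 per Mb. The tRNA windows were thus 4.33 times, the snoRNA windows 3.19 times, the snRNA windows 2.33 times and the miRNA windows 1.297 times as dense as the nuclear genome. All 4 sets of windows together cover 0.635% of the nuclear bases and hold 2.06% of its peaks.

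Peak strength did not follow frequency. The signal value, a strength given to each peak in the deposited list with no stated unit, had a median of 16.8 at snoRNA genes, 16.5 at snRNA genes, 13.2 at miRNA genes and 13.1 at tRNA genes, against 11.3 over all nuclear peaks. These medians rank at the 82.7th percentile of all nuclear peaks for snoRNA, the 82.0th for snRNA, the 66.9th for miRNA and the 66.4th for tRNA genes. Of the snoRNA peaks 30.9% and of the snRNA peaks 34.5% were among the 1900 strongest of the 18993 nuclear peaks. The tRNA peaks were concentrated above the middle and below the top: 69.2% had a signal above the median of all nuclear peaks, and 7.59% were among those 1900. The strongest peak by biotype was 137 for snoRNA, 51.0 for snRNA, 46.9 for tRNA and 44.4 for miRNA genes, and the strongest nuclear peak of the list was 241.

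**Figure D2:**
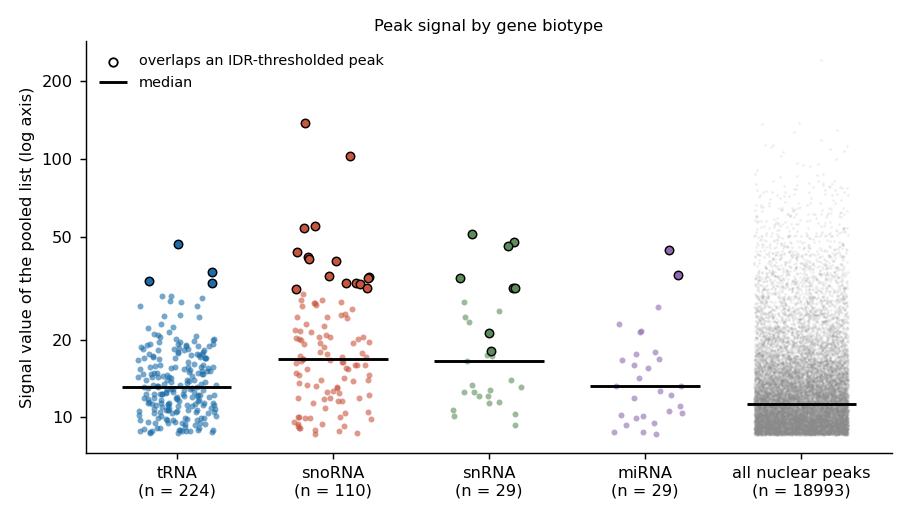
Signal value of each peak in the pooled list, on a log axis, by the biotype of the gene at its summit and for all nuclear peaks, with horizontal lines at the medians and black rims on peaks that overlap an IDR-thresholded peak. snoRNA and snRNA medians of 16.8 and 16.5 lie above those of tRNA and miRNA genes, and the tRNA peaks hold few rimmed points.

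The share of peaks present in both replicates was lowest in number at tRNA genes, with an interval that overlaps that of miRNA genes. A peak of the pooled list counted as present in a replicate where a peak of that replicate overlapped it. Neighbouring pooled peaks could thus count through the same replicate peak, as at sls-2.1, sup-6 and mir-8194. Peaks were present in both lists for 119 of 224 tRNA peaks (53.1%, interval 46.4 to 59.8%), 79 of 110 snoRNA peaks (71.8%, 62.4 to 80.0%), 24 of 29 snRNA peaks (82.8%, 64.2 to 94.2%) and 19 of 29 miRNA peaks (65.5%, 45.7 to 82.1%). Over the 391 peaks the share was 61.4%, against 44.3% of all nuclear peaks. No overlapping peak in either list was found for 3 of the 391 peaks (0.767%), 2 at tRNA genes and 1 at an snoRNA gene. Over all 18993 nuclear peaks this held for 997 (5.25%). Under the stricter rule that both replicate summits lie within 100 bp of the pooled summit, the share was 30.4% for tRNA, 52.7% for snoRNA, 48.3% for snRNA and 44.8% for miRNA peaks, against 27.5% of all nuclear peaks.

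Because stronger peaks are found in both replicates more often, the shares were also set side by side within classes of signal. Among peaks with a signal of at least 14.6, the strongest of 4 equal classes of the nuclear list, 68 of 89 tRNA peaks (76.4%, interval 66.2 to 84.8%), 62 of 68 snoRNA peaks (91.2%, 81.8 to 96.7%), all 15 snRNA peaks and 11 of 12 miRNA peaks were present in both lists, against 83.4% of all nuclear peaks in that class. The interval for tRNA peaks includes the share of all nuclear peaks. The strongest class runs up to a signal of 241, so its shares do not compare peaks of like signal. In the next class, with signals of 11.3 to 14.6, 28 of 66 tRNA peaks (42.4%) and 11 of 22 snoRNA peaks were present in both, against 47.8% of all nuclear peaks. In the weakest class and the one above it, the tRNA shares were 22.2% and 40.5%, against 18.0% and 28.1% of all nuclear peaks, with tRNA intervals of 8.62 to 42.3% and 25.6 to 56.7%. Here the tRNA peaks were not the lowest throughout, since 2 of 11 snoRNA peaks (18.2%) in the weakest class and 1 of 3 snRNA peaks (33.3%) in the one above it were in both lists.

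**Figure D3:**
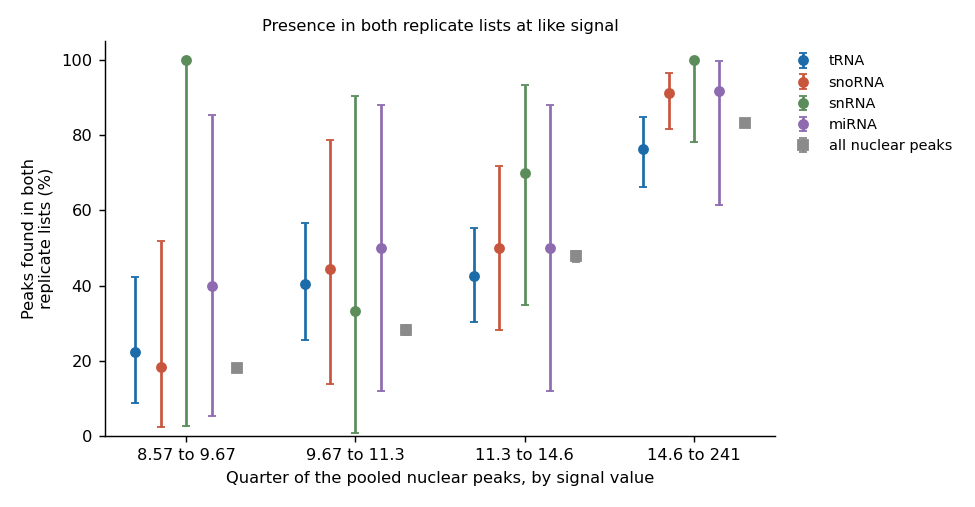
Share of pooled peaks (%) that overlap a peak in both replicate lists, within 4 equal classes of signal value, for each biotype and for all nuclear peaks (squares), with 95% intervals. In the strongest class the tRNA point is at 76.4% and the square at 83.4%, and intervals of snRNA and miRNA peaks are wide in the weaker classes.

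The list thresholded on the irreproducible discovery rate (IDR), a measure of how alike peaks rank in the replicates, held 815 nuclear peaks. Their lowest signal was 31.2, and every member with a higher pooled signal overlapped one of them. The shares below therefore largely follow the pooled signal and are no separate measure of agreement between the replicates. Of the members, 4 of 224 tRNA peaks (1.79%), 16 of 110 snoRNA peaks (14.5%), 8 of 29 snRNA peaks (27.6%) and 2 of 29 miRNA peaks (6.90%) overlapped an IDR-thresholded peak, against 4.56% of all nuclear peaks. The intervals were 0.489 to 4.51% for tRNA, 8.55 to 22.5% for snoRNA, 12.7 to 47.2% for snRNA and 0.846 to 22.8% for miRNA peaks. The 8 snRNA peaks include 2 weaker neighbours, at sls-2.1 and sup-6, that overlap the IDR-thresholded peak of the same gene, so 6 snRNA peaks are themselves in that list. In the strongest signal class 4.49% of tRNA peaks overlapped an IDR-thresholded peak, against 17.7% of all nuclear peaks of that class. That class runs from 14.6 to 241, so these 2 shares do not compare peaks of like signal. The 4 tRNA peaks with a signal above 31.2 all overlapped an IDR-thresholded peak. The tRNA peaks, in these counts, had the smallest share of their peaks in the IDR-thresholded list, with an interval that overlaps the miRNA one.

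The strongest snoRNA peak, and the strongest peak of all members, lay 73 bp upstream of T21B4.20 (chrII:12519086-12519217, plus strand). Its signal was 137 in the pooled list, with 46.2 in replicate 1 and 92.7 in replicate 2, whose scales are not stated to be shared. The summit is also in the promoter windows of ceh-99, a homeobox gene, and srh-70, a gene of the serpentine receptor class. The next peak, near T15H9.8 (chrII:9622415-9622695, minus strand), reached 102 in the pooled list, 32.4 in replicate 1 and 71.1 in replicate 2. This snoRNA gene lies inside dnj-20, a gene for a protein with a DnaJ domain, and the summit is beyond its 3′ end, 451 bp from its 5′ end. A higher raw value in replicate 2 is common: it was found at 186 of the 240 members and 6782 of the 8415 nuclear peaks present in both. By percentile rank within each list, replicate 2 was higher at 124 of these 240 members and 4304 of these 8415 nuclear peaks.

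Behind these followed Y102A11A.16 with a pooled signal of 55.0, in the promoter window of igcm-4, and W06H8.17 with 53.9, in that of W06H8.6. Of these, the Y102A11A.16 summit fell inside the snoRNA gene and the W06H8.17 summit 163 bp upstream. F48A9.6, with 43.4, lies inside let-607, which encodes a bZIP transcription factor, and its window held TGACAG. F55A11.10 had 41.6, M7.15 had 41.2 in the promoter windows of klc-1, a kinesin light chain gene, and let-70, a ubiquitin-conjugating enzyme gene, F59C6.15 had 40.4, ZK994.7 had 35.4 inside pxn-1, a peroxidasin gene, and T04A8.17 had 34.96 inside ppat-1. All 16 snoRNA peaks that overlap an IDR-thresholded peak had a protein-coding promoter at the summit or a protein-coding host gene, against 67.3% of all 110 snoRNA peaks. In 14 of the 16 the summit lies outside the snoRNA gene. Outside is also the common place, since only 21 of all 110 snoRNA summits (19.1%) lie inside the gene.

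At tRNA genes the strongest peak stood 113 bp upstream of F01G12.t1 (chrX:16378113-16378184), a tRNA-Glu gene inside sur-7. Its signal was 46.9 in the pooled list, 6.81 in replicate 1 and 41.6 in replicate 2. K07A1.t1, a tRNA-Ser gene on chromosome I, had 36.5, with 10.5 in replicate 1 and 23.1 in replicate 2, at the promoter of aqp-9, an aquaporin gene. C37A2.t1, a tRNA-Cys gene inside cye-1, the cyclin E gene, had 33.7, with 7.51 and 21.3 in replicates 1 and 2. F52H2.t1, a tRNA-Asp gene inside aat-3, an amino acid transporter gene, had 33.1, with 28.9 in replicate 2 and no overlapping peak in replicate 1. These are the 4 tRNA peaks that overlap an IDR-thresholded peak, and in none of them did the summit fall inside the tRNA gene. Over all 224 tRNA peaks it did so in 69 (30.8%). T04F8.t1 followed with 29.5.

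Several of the strongest snRNA peaks were at SL2 spliced leader genes. Spliced leader RNAs donate the short exon that is joined to the start of worm messenger RNAs, SL1 from the sls-1 genes to most of them and SL2 from the sls-2 genes mainly to downstream genes of operons. A summit lay within 200 bp of 8 of 18 sls-2 genes (44.4%, interval 21.5 to 69.2%), of none of 12 sls-1 genes, which allows a share of up to 26.5%, and of 18 of 89 snRNA genes outside the sls and smy groups (20.2%, 12.4 to 30.1%). All 12 sls-1 genes and none of the sls-2 genes have an identical copy elsewhere in the genome, and how reads from such copies were placed is not given in the sources used here for any list. The peaks at sls-2 genes numbered 9, with a median signal of 23.3, and all 9 were present in both replicate lists. The 2 peaks at sls-2.1 count there through the same replicate peaks. sls-2.4 (chromosome I, in the promoter window of egg-5) had 51.0 in the pooled list, 21.9 in replicate 1 and 26.2 in replicate 2. sls-2.1 had 46.1, 17.9 and 29.1 in the same lists, and sls-2.2 had 34.5, 19.3 and 16.9.

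The other strong snRNA peaks were at ZK1251.14, with 47.5 in the promoter windows of ZK1251.3 and ins-7, an insulin-like peptide gene, at sup-6, with 31.8 inside F58G1.7, and at F38E11.10, with 31.6. ZK1251.14 had 17.1 in replicate 1 and 30.4 in replicate 2. sup-6 had 5.36 in replicate 1 and 22.3 in replicate 2, a wider gap than at the sls-2 genes named above. The single peak at a smy gene, smy-1, had 13.1 and was absent from replicate 1.

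**Figure D4:**
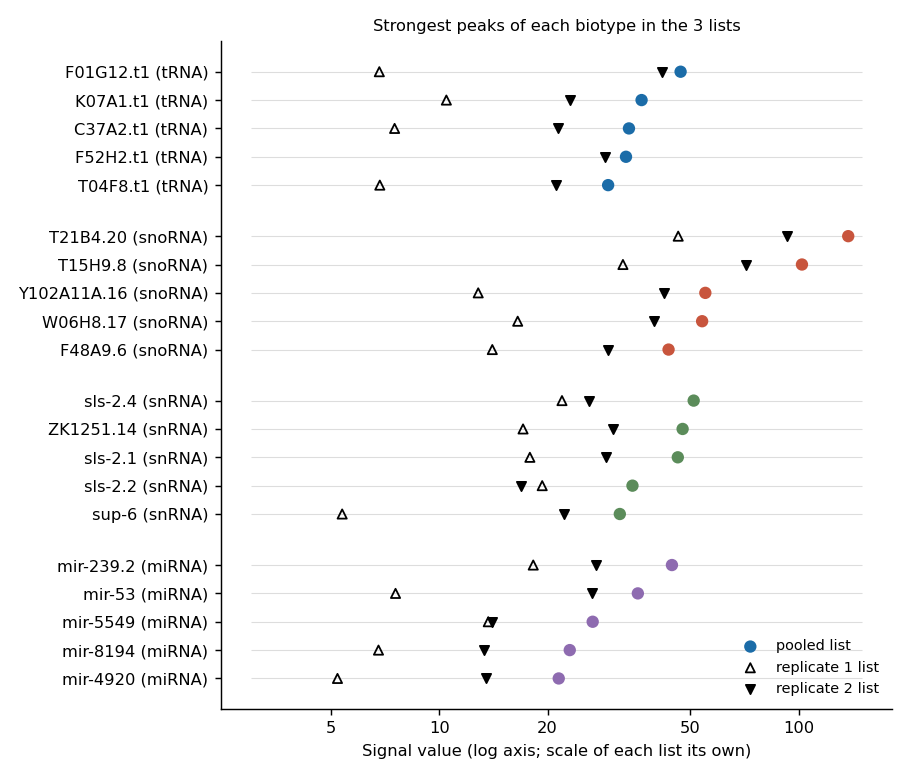
Signal value of the 5 strongest peaks of each biotype in the pooled list (filled circles), replicate 1 (open triangles) and replicate 2 (filled triangles), on a log axis. Each list has its own scale, and F52H2.t1 has no replicate 1 point because no peak of that list overlaps it.

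The 29 miRNA peaks were at 28 miRNA genes, with 2 at mir-8194. The mature RNAs of 6 of them are shown because they share their seeds, the bases 2 to 8 by which a miRNA pairs with its targets, in 2 groups. Sequences are those of the RefSeq annotation, with the seed in capitals.
mir-239.2 5′ arm: uUUGUACUacacaaaaguacug
mir-239.1 5′ arm: uUUGUACUacacauagguacugg
mir-238 3′ arm: uUUGUACUccgaugccauucaga
mir-53 5′ arm: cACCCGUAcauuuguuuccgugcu
mir-51 5′ arm: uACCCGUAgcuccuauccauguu
mir-56 3′ arm: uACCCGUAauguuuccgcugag
The seed UUGUACU joins mir-239.2, mir-239.1 and mir-238, which are known for effects on adult lifespan. The seed ACCCGUA joins mir-53, mir-51 and mir-56, of the mir-51 family, which is known to be needed in embryos.

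The strongest miRNA peak was 179 bp upstream of mir-239.2 (chrX:11791302-11791399, minus strand), with 44.4 in the pooled list, 18.3 in replicate 1 and 27.3 in replicate 2. mir-53 (chrIV:11027593-11027691, minus strand) had a summit 178 bp upstream, with 35.7 in the pooled list, 7.55 in replicate 1 and 26.5 in replicate 2. These 2 peaks overlap an IDR-thresholded peak, and both lie away from any protein-coding promoter window or host gene. The seed partners were lower. mir-238 had 16.8 and mir-56 had 21.3, both present in both replicates, mir-239.1 had 8.81 and was present in both, and mir-51 had 9.50 and was absent from replicate 2.

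Of the remaining miRNA genes, mir-5549 had 26.7 at the promoters of eef-1A.1, a translation elongation factor gene, and rfc-4. mir-8194 had 23.1 and 17.6, mir-4920 had 21.5, mir-270 had 17.8 and mir-60 had 16.6. mir-48, the member of the let-7 family of developmental timing miRNAs with a peak, had 15.9 and was absent from replicate 2. mir-70, mir-2, mir-255, mir-2214, mir-80, mir-34, mir-5553, mir-8199, mir-67, mir-47, mir-72, mir-64, mir-42, mir-236, mir-8198 and mir-8209 lay between 15.6 and 8.65. By family, a summit within 200 bp was found at 3 of 6 mir-51 family genes, 1 of 7 let-7 family genes, 1 of 8 mir-35 family genes (mir-42), 1 of 5 mir-58 family genes (mir-80) and 2 of 4 genes of the mir-64 cluster. It was found at 3 of 6 lifespan miRNA genes and at neither gene of the lin-4 family, nor at mir-1, the muscle miRNA, or lsy-6, a miRNA of neuronal asymmetry. The background for these counts is the 30 of 261 miRNA genes (11.5%) with a summit. In the mir-64 cluster only mir-64 was the nearest gene to a peak. That peak had a signal of 10.1 and was absent from replicate 1.

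The position of the summit along the gene differed between biotypes in its centre. At tRNA genes summits were spread, with 80 upstream, 69 inside and 75 downstream of the gene, and the median summit was 37 bp into the gene from its 5′ end. At snoRNA genes 69 of 110 (62.7%, interval 53.0 to 71.8%) were upstream, 21 inside and 20 downstream, and the median summit was at -31.5 bp relative to the 5′ end. At snRNA genes 15 were upstream, 9 inside and 5 downstream, and at miRNA genes 18 were upstream, 5 inside and 6 downstream. The tRNA peaks with a summit inside the gene had a median signal of 15.1, against 12.5 for upstream and 12.7 for downstream summits. At snoRNA genes the median signal was highest upstream, at 18.7, with 16.3 inside and 13.6 downstream.

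Counted over all genes in bins of 100 bp, the tRNA genes had 13.4 summits per 100 genes in the 100 bp that follow the 5′ end, which can reach past the 3′ end of these short genes, and 11.4 in the 100 bp before it. The snoRNA genes had 15.9 per 100 genes in the 100 bp before the 5′ end and 5.20 in the 100 bp after it. The snRNA genes also had their highest bin, 6.98 per 100 genes, just before the gene. The miRNA genes had 7.66 per 100 genes between 200 and 300 bp upstream of the annotated hairpin and 3.07 in the 100 bp before it. The miRNA maximum therefore falls outside the 200 bp rule, and with a limit of 500 bp the number of miRNA peaks was 81. Just inside the limit, at 151 to 200 bp, 9 miRNA peaks had a median signal of 16.8, and just outside it, at 201 to 250 bp, 11 had 14.8. For tRNA genes the same belts held 24 peaks with a median of 11.7 and 10 with 14.5, for snoRNA genes 8 with 30.8 and 8 with 17.2, and for snRNA genes 2 with 29.5 and 5 with 11.3.

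**Figure D5:**
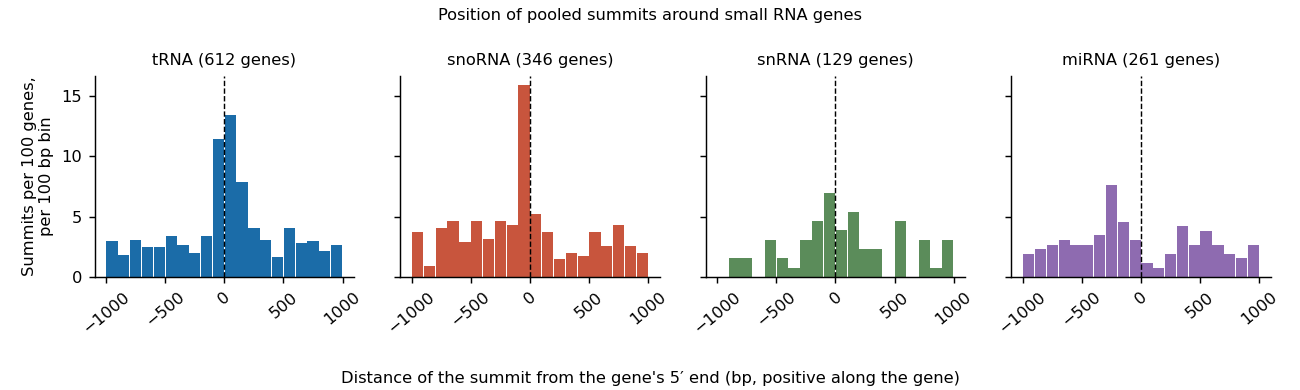
Number of pooled summits per 100 genes in bins of 100 bp, by distance from the 5′ end of the gene (bp, positive along the gene, dashed line at the 5′ end), for each biotype. The maximum is in the 100 bp after the 5′ end for tRNA, just upstream for snoRNA and snRNA, and 200 to 300 bp upstream for miRNA genes.

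Many peaks at small RNA genes share their site with a protein-coding gene, as do many of all nuclear peaks. The summit lay in a protein-coding promoter window for 58 of 224 tRNA peaks (25.9%), 37 of 110 snoRNA peaks (33.6%), 14 of 29 snRNA peaks (48.3%) and 9 of 29 miRNA peaks (31.0%), against 36.6% of all nuclear peaks. Over all 391 peaks this was 30.2%, a lower share than in the whole list. The summit lay inside a protein-coding gene for 44.2% of the 391 peaks, against 53.7% of all nuclear peaks. A protein-coding promoter at the summit, a host gene around the small RNA gene, or both were found for 62.9% of tRNA, 67.3% of snoRNA, 82.8% of snRNA and 44.8% of miRNA peaks. This combined share was not counted over all nuclear peaks. Taken apart, the promoter and in-gene shares were both lower over the 391 peaks than over all nuclear peaks. Shares were also counted over all genes of each biotype, whether or not they had a peak. There the promoter window was taken at the middle of the gene and not at a summit, so the measure differs. These shares were 62.3% for tRNA, 77.5% for snoRNA, 68.2% for snRNA and 54.8% for miRNA genes.

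The 141 tRNA peaks with a promoter or host had a median signal of 12.7, and 69 of them (48.9%) were present in both replicates. The 83 with neither had a median of 14.4, and 50 (60.2%) were present in both. The 4 tRNA peaks in the IDR-thresholded list all belong to the sites with a promoter or host. At snoRNA genes the 74 peaks with a promoter or host had a median of 17.2 and were present in both replicates in 77.0% of cases, and the 36 with neither had a median of 16.2, with 61.1% in both. At snRNA genes 19 of 24 peaks with a promoter or host were in both replicates, with a median of 13.6, and all 5 with neither were, with a median of 24.4. At miRNA genes 9 of 13 peaks with a promoter or host were in both replicates, with a median of 15.6, and 10 of 16 with neither were, with a median of 11.3, and both miRNA peaks that overlap an IDR-thresholded peak have neither.

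snoRNA genes inside a protein-coding host had a summit less often in the counts than those outside. A summit was found at 49 of 216 hosted genes (22.7%, interval 17.3 to 28.9%) and at 58 of 130 genes without a host (44.6%, 35.9 to 53.6%), and these intervals do not overlap. In the 100 bp before the gene there were 11.1 summits per 100 hosted genes and 23.8 per 100 genes without a host. For tRNA genes the shares were 36.9% in hosts and 40.7% outside, with intervals of 31.3 to 42.7% and 35.3 to 46.3%. For snRNA genes they were 20.6% in hosts and 21.2% outside, and for miRNA genes 7.55% in hosts and 14.2% outside. At snoRNA peaks with a host, 77.1% of the hosts were on the strand of the snoRNA gene, against 84.7% over all hosted snoRNA genes, and at tRNA peaks 53.4% were, against 57.6% over all hosted tRNA genes.

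The words TGACAG and TGATTGAC were searched in the 50 bp on either side of every summit. TGACAG was found at 12 tRNA peaks (5.36%), 8 snoRNA peaks (7.27%), 3 snRNA peaks (10.3%) and 1 miRNA peak (3.45%), against 5.79% of all nuclear peaks. All 4 intervals include the share of all nuclear peaks. TGATTGAC was found at 4 of the 391 peaks (1.02%), against 0.79% of all nuclear peaks. The sites were T21B4.20, T15H9.8, F01G12.t1 and T03E6.t1, which had signals of 137, 102, 46.9 and 20.6. GTTCGANNC, the core of the B box, was within 50 bp of 61 tRNA summits (27.2%), 9 snoRNA summits (8.18%), no snRNA summit and 1 miRNA summit (3.45%), against 0.948% of all nuclear peaks. The rule places tRNA peaks near genes that often hold this word, so an excess over all nuclear peaks is built in. Among tRNA genes 442 of 612 (72.2%) hold this word, and a summit was found at 39.8% of those with it and 36.5% of those without it.

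The tRNA genes of worms are repeated, and 472 of the 612 (77.1%) have at least 1 identical copy elsewhere in the nuclear genome. A summit was found at 41.7% of those with a copy (interval 37.2 to 46.3%) and at 29.3% of those without (21.9 to 37.6%). Among snRNA genes it was 17.4% of 46 genes with a copy and 22.9% of 83 without. The part of identical copies in the number of tRNA peaks was not tested. By amino acid, the share of tRNA genes with a summit ran from 3 of 20 tRNA-Asn genes to 8 of 13 tRNA-Cys genes, among amino acids with more than 1 gene. The single tRNA gene for selenocysteine had a peak of 24.7, present in both replicates. Intervals by amino acid are wide: 3.21 to 37.9% for tRNA-Asn and 31.6 to 86.1% for tRNA-Cys. Chromosome X carries 276 of the 612 tRNA genes, and 41.7% of these had a summit, against 36.6% of the autosomal ones, with overlapping intervals of 35.8 to 47.7% and 31.4 to 42.0%.

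Protein-coding genes of the small RNA pathways were looked at for peaks of their own. A pooled summit lay in the promoter window of 8 of 10 miRNA pathway genes, against 33.2% of all nuclear protein-coding genes, and an IDR-thresholded summit in that of 2, against 2.43%. These 2 were vig-1, a gene of the miRNA effector complex, with 45.7, and alg-1, a gene for the Argonaute protein that carries miRNAs, with 32.1. Below them were ain-1 with 23.7, alg-2 with 18.1, pash-1 with 14.4, ain-2 with 13.0, dcr-1, the Dicer gene, with 11.7, and xrn-2 with 10.3, and drsh-1, the Drosha gene, and tsn-1 had none. The list for RNA polymerase III and the snRNA activating complex named 11 genes, of which 10 were found in the annotation. Of these 10 genes 5 had a pooled summit and none had an IDR-thresholded one. The 5 were snpc-3.4 with 16.7, snpc-1.1 with 15.2, snpc-4 with 14.6, rpc-1 with 13.3 and brf-1 with 10.1. The list for the snoRNA protein particle and nucleolus named 6 genes, of which 5 were found. All 5 had a pooled summit and none had an IDR-thresholded one. They were nol-58 with 24.98, nol-56 with 17.5, nol-10 with 11.2, fib-1, the fibrillarin gene, with 10.5 and dao-5 with 10.05.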

How the data were processed

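Peaks were compared within 1 group of 2 biological replicates. Per the deposited README texts, the pooled list was derived from a control and the reads of both replicates, each replicate's list from its own reads and a control, and the other 3 lists together gave the IDR-thresholded one. Which aligner and peak caller were used, and how multiply placed reads were treated, is not given in the sources used here. As for units, the signal column, as deposited by the authors, has no stated unit and was ranked within a list only. The ce11 lists held 19023 pooled, 30000 replicate 1, 28092 replicate 2 and 843 IDR-thresholded peaks, mitochondrial ones included. The pooled list and the relaxed replicate lists hold background as well as peaks by design, and read depth is unknown.

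Genes came from Ensembl release 115 (WBcel235, which is ce11). Symbols, amino acids and mature miRNAs came from RefSeq on the same assembly, where all 1348 small RNA genes matched. The gene nearest the summit within a biotype was named. Overlap meant at least 1 bp. Intervals are exact Clopper-Pearson intervals at 95% and cover counting only. No p-value is given, since peaks and genes are not replicates. The counting was tested on simulated summits. Named are the 6 strongest peaks of each biotype, up to 10 IDR-overlapping peaks of each, every miRNA with a peak and listed genes with a peak, except 1 tRNA site not reported here. The members, lists and rules were chosen with earlier results of these data known. Sequence windows are shown from chromosomes other than I. Software versions were matplotlib 3.10.9, pandas 2.3.3, scipy 1.17.1, numpy 2.4.6 and Python 3.11.15.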

Additional observations from a re-analysis of the deposited data

How the results depend on the processing

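No paired analysis was possible because there is 1 group and no comparison between conditions. Of 164 values recomputed under alternatives, 121 stayed inside the 95% interval of the value as reported and 43 did not. Values below are for tRNA, snoRNA, snRNA and miRNA peaks in that order unless named.

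Peak shares of the list were 0.363, 0.111, 0.0474 and 0.0263% with the summit inside the gene, 1.51, 0.927, 0.226 and 0.426% within 500 bp, and 1.63, 0.948 and 0.263% for tRNA, snoRNA and snRNA in the stronger 9496 pooled peaks. In the list of 1 replicate alone they were 0.734 to 0.859% for tRNA and 0.434 to 0.470% for snoRNA. The median signal percentile was 77.0 for tRNA with the summit inside the gene, and, ranked within the stronger 9496 peaks, 54.4 for tRNA and 74.97 for snoRNA. Presence in both replicates was 40% for miRNA with the summit inside the gene (2 of 5 peaks), 61.9% for tRNA and 81.1% for snoRNA in the stronger 9496 peaks (65.6% of all of these), and 42.9% for tRNA and 60% for snoRNA when at least 0.5 of the pooled peak had to overlap (35.1% of all nuclear peaks). It was 30.4, 52.7, 48.3 and 44.8% with replicate summits within 100 bp, 24.1, 44.5, 41.4 and 37.9% with the strongest 10000 peaks of each replicate (16.8% of all nuclear peaks), and 0, 7.27, 13.8 and 3.45% with the strongest 1000 (2.61% of all nuclear peaks), which was added after seeing the data. The tRNA share was the lowest of the 4 in each of these, except with the summit inside the gene. IDR overlap was 0% for tRNA and miRNA with the summit inside the gene, and 0% for miRNA when the peak had to overlap the gene, since the peaks of mir-239.2 and mir-53 lie upstream. A shared promoter or host was found for 69.6% of tRNA and 57.1% of snoRNA peaks with the summit inside the gene, for 55.4% of tRNA and 55.2% of snRNA peaks with promoters of 500 bp up and 100 bp down, and for 73.2% of tRNA peaks with 2000 bp up and 500 bp down. The cause of these shifts was not tested where the rule itself does not set them. Unknown read depth limits how weak a peak each replicate list can show, and 29 peaks for snRNA and for miRNA limit the precision of their shares.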

Other observations

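Just beyond the 200 bp limit, 20 miRNA genes had a summit between 200 and 300 bp upstream of the annotated hairpin, at 20 distinct peaks. They were looked at after the values were seen. Of these 20 peaks 4 are also members by the 200 bp rule, 3 of them at miRNA genes. Present in both replicates were 11 (55%, against 44.3% of all nuclear peaks), 3 overlapped an IDR-thresholded peak (15%, against 4.56%) and 7 were in a protein-coding promoter window (35%, against 36.6%). With a limit of 300 bp on either side of the hairpin, 56 of 261 miRNA genes (21.5%) had a summit. The strongest, 255 bp upstream of mir-77, is the same peak as at the snoRNA gene T21B4.20, with a signal of 137. The next was 248 bp upstream of mir-54, with 50.4, and overlapped an IDR-thresholded peak, as did the peak 233 bp upstream of mir-4929, with 33.3. mir-52 had a peak of 28.8 at 231 bp upstream and mir-229 one of 18.9 at 242 bp.

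mir-71, a miRNA known for effects on lifespan, had a weak peak of 10.6 at 263 bp upstream that was not in both replicates.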
